A study of Mus musculus with 15 samples.

Results

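Non-IAP ERVK piRNAs are the small RNAs of mouse testis whose reads lay in long terminal repeat (LTR) elements of the ERVK family other than intracisternal A particles (IAP). By the paper's methods, piRNA reads were those that also lay in annotated piRNA clusters, so copies outside such clusters were not counted. A locus here is 1 genomic interval on 1 strand, given by its 5′ and 3′ ends, with the number of reads that had exactly those ends. Members were taken as every locus with the repeat class LTR, the family ERVK and an element name that does not begin with IAP. This gave 255371 of the 8128951 loci counted over all 15 libraries, and 1425062 of those 8128951 lay in some annotated repeat. The members carried 168 element names. A further set of loci with the uncertain family name ERVK# was left out by this rule.

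All libraries came from testes of C57Bl/6 males aged 8 weeks, with no mutation or drug in any group. Pseudouridine (Ψ), an isomer of uridine made in place by Ψ synthases, was probed in 2 ways with 3 libraries in each of 5 groups. In the first, small RNA was immunoprecipitated with an antibody against Ψ (Ψ-IP), and the unbound RNA (flow-through) and the starting RNA (input) were sequenced beside it. In the second, small RNA was treated with CMC, a carbodiimide that stays bound to Ψ and stops reverse transcription, or was mock treated, a group that one label field calls untreated. The question was whether piRNAs of these elements were more frequent in Ψ-IP than in input or flow-through, and less frequent after CMC than after mock treatment. The Ψ-IP set (input, Ψ-IP and flow-through) and the CMC set (mock and CMC) were made with library kits of different makers, so levels were compared only within each set. Nothing states that the 3 libraries of a group came from different animals, so the tests measure the spread between libraries, which may be technical. In whole testis, fewer cells of a type and less RNA per cell cannot be told apart, and these small RNA tables hold no mRNA markers with which to check the cells.

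ERVK elements are the betaretrovirus-like endogenous retroviruses of the mouse genome, and IAP and ETn/MusD are their best-known mobile members. A complete element has an internal part (names ending in -int or _I) between a pair of LTRs, but most copies have been reduced to a lone LTR. In male germ cells, long single-stranded transcripts of piRNA clusters are cut into piRNAs that are loaded into PIWI proteins, with MILI holding shorter and MIWI longer piRNAs and with a preference for uridine as the first base. Where piRNAs of both strands guide cuts in each other's precursors, the ping-pong cycle leaves 5′ ends that overlap by 10 nt. An element name below therefore says which repeat a piRNA precursor contained, not that the element itself was active.

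Sequences are shown for the 6 most abundant 5′ ends of members that lay wholly in exons of annotated non-coding transcripts, where the bases could be read, so that the uridines open to modification can be seen. Each line gives the most abundant form of at most 30 nt from its 5′ end, in GRCm38 coordinates with bases read from GENCODE vM21 transcripts, with T for U and the first base in capitals. They were chosen by level and are not part of the rule for named loci.
RMER4B in Gm21221, chr5:149802306-149802334 minus: Tacttgacagaccgcagcaaaccgcaacc
RLTR19-int in 4930405N21Rik, chr5:113320976-113321001 minus: Tgaactaacgtcgtggtggattgttt
MYSERV6-int in Gm13821, chr5:114841263-114841292 minus: Tgtaaaccggtttaatatcctagataattg
RMER4B in Gm21221, chr5:149802211-149802240 minus: Tgagaagtccccagaatcctaaatgtaaca
RLTR19-int in 4930405N21Rik, chr5:113320937-113320962 minus: Tagttgcctgtatgtcactgcccaga
RMER4B in Gm21221, chr5:149802240-149802269 minus: Tatcagggctctcgaatttatccatcctct

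All 6 began with T, and they held 3, 10, 11, 6, 8 and 11 T residues in the order shown. Over all exonic members, which were 3.19% to 4.99% of the member counts of a library, the first base was T in 87.4% to 90.4% of counts. Base 10 was A in 16.3% to 23.5% of counts. T made up 21.5% to 24.2% of the bases of exonic member reads in flow-through, and between 28.4% and 31.4% in the other 12 libraries, so the flow-through libraries lay below those of input and Ψ-IP. The first 5′ end shown, with 3 T, was more abundant in flow-through than in input, as given below. These shares were not computed without it. These composition values describe exonic members only, since 75.0% of member loci lay outside annotated genes, 15.1% in a gene but not wholly in an exon and 9.90% in an exon.

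Library totals ran from 11575705 to 58399368 counts. Within each group the element counts of any pair of libraries differed beyond sampling noise (chi-square divided by its degrees of freedom, 2.77 to 21), so each was kept as a separate library. Levels below are CPM, the counts per 1000000 counts of the library, and fold changes and tests come from edgeR (quasi-likelihood fit, TMM factors), with p adjusted by Benjamini and Hochberg's method over every row tested and a threshold of 0.01. Many loci were sparse: 133311 members were seen in 1 library only and 4184 in all 15. Loci with the same 5′ end and different lengths are also not independent, and the members fell on 80201 distinct 5′ ends.

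Non-IAP ERVK piRNAs made up about 2% of the counts of each library, which by the paper's methods are reads in annotated piRNA clusters. In input they had 21374, 21279 and 20857 CPM, in Ψ-IP 22684, 23155 and 22544 CPM, and in flow-through 20906, 20365 and 20605 CPM. The Ψ-IP libraries were thus above all input and flow-through libraries by a small margin, and input and flow-through overlapped at 20857 and 20906 CPM. In mean CPM, nearly all of this margin lay in MurERV4, the most abundant element name, whose levels are given below. Neither the member total nor the family ratios below were computed without that name. In the CMC set the levels were 17422, 17689 and 17395 CPM for mock and 17129, 17411 and 17471 CPM for CMC, and these 2 groups overlapped. In the table of 26 rows, which are the repeat families and 1 row for loci outside repeats, where 23.1% of rows rose and 38.5% fell in Ψ-IP against input, the log2 fold change of the members was 0.06 (SE 0.015, n = 3 and 3, edgeR adjusted p = 0.00669). Without any 1 library the adjusted p lay between 0.0152 and 0.0376, and without the most abundant member locus it was 0.0137, so the call was lost in each case. The size moved with the scaling and the filter, with the call kept, to 0.12 with DESeq2 size factors, in DESeq2 and with no count filter, 0.11 with library totals and 0.13 with a mean of at least 1000 counts. Against flow-through, where 34.6% of rows rose, the log2 fold change was 0.12 (SE 0.023, edgeR adjusted p = 0.00175). With no count filter this call was lost (0.11, edgeR adjusted p = 0.0116), and without Ψ-IP replicate 3 the value was 0.19 (edgeR adjusted p = 0.00215). No call was made for CMC against mock (log2 fold change -0.01, SE 0.011, edgeR adjusted p = 0.375) or for flow-through against input (-0.02, SE 0.018, edgeR adjusted p = 0.409).

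The nearest families gave other values in the same fits. ERVL piRNAs fell in Ψ-IP against input (log2 fold change -0.15, SE 0.026, edgeR adjusted p = 0.00141) and rose after CMC (0.11, SE 0.011, edgeR adjusted p = 0.00053). The ratio of non-IAP ERVK to ERVL counts was higher in all 3 Ψ-IP libraries than in any input library (difference of mean log2 ratios 0.21) and lower in all 3 CMC libraries than in any mock library (-0.12). In exact two-sided permutation tests both had p = 0.1, the smallest that 3 against 3 libraries allow, and the adjusted value over 12 ratio comparisons was 0.133. The ratio to IAP counts was higher in Ψ-IP than in input (0.15) and lower in CMC than in mock (-0.05) on the log2 scale, again without overlap and with an exact permutation p of 0.1. The ratio to ERV1 counts differed by 0.04 between Ψ-IP and input (exact permutation p = 0.2), and was lower in Ψ-IP than in flow-through without overlap (-0.19, exact permutation p = 0.1). ERV1 piRNAs themselves rose over flow-through by 0.31 (SE 0.029, edgeR adjusted p = 4.32e-05).

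Within the annotated piRNA clusters to which the reads were limited, most of the member signal came from few genomic places. When all loci of the files were merged across gaps of at most 10 kb, 335 of 953 clusters held a member, and 11 of these held 84.8% of the members' CPM in the Ψ-IP set. A 67.7-kb cluster at chr5:113313087-113380783 alone held 44.1% of the member CPM in the Ψ-IP set and 31.4% in the CMC set, with 10 element names. There followed chr17:27269744-27371970 with 9.51% in the Ψ-IP set, chr9:67687025-67773986 with 6.74% and chr11:103420063-103455674 with 6.65%. The strands of these clusters were uneven: 99.5% of the chromosome 9 member CPM lay on the plus strand and 6.82% of that on chromosome 17. Over all members the plus strand held 60.3% to 65.0% of counts.

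Element levels followed these clusters. MurERV4 was the most abundant name (mean 6847 CPM over the 9 libraries of the Ψ-IP set), and 96.9% of it came from the chromosome 5 cluster. RMER17A2 followed with 2009 CPM, spread over 12 clusters with 38.7% from chromosome 17. The next 8 names had between 579 and 802 CPM, and the first 10 together held 66.8% of the member CPM. RMER19B2 came to 98.8% from the chromosome 9 cluster and RLTR26C to 99.7% from the chromosome 11 cluster, so for such names the element and 1 locus of the genome cannot be told apart.

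**Figure D1:**
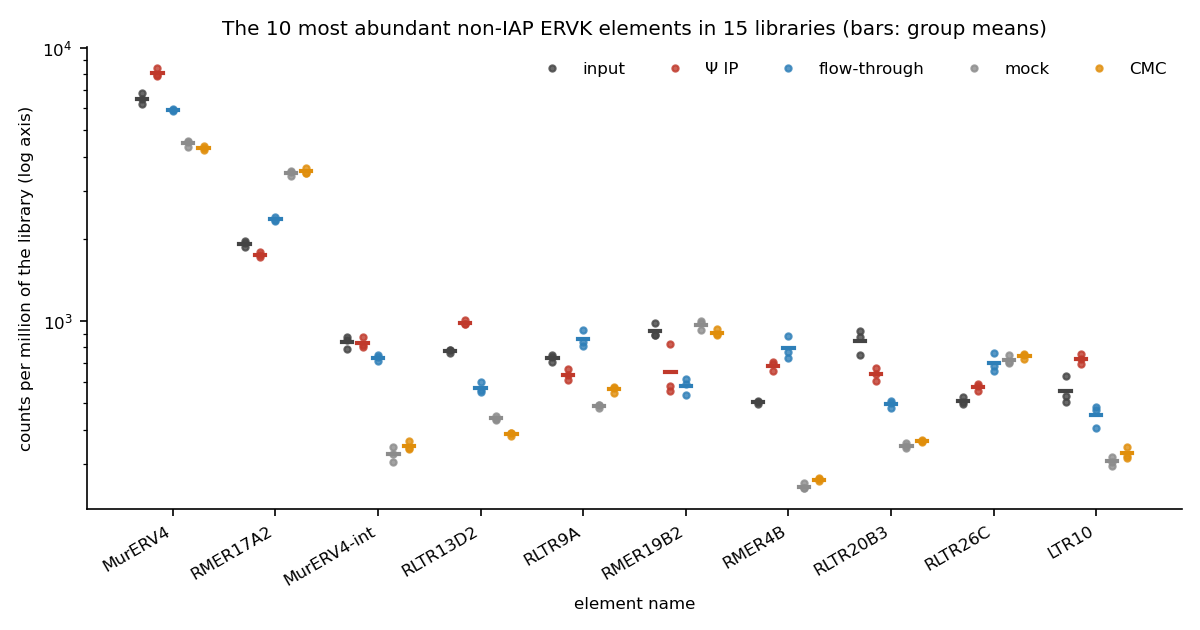
CPM of the library (log axis) of the 10 most abundant element names, with 1 point for each of the 15 libraries and a bar at each group mean. MurERV4 lay between 7886 and 8438 CPM in Ψ-IP, above input and flow-through, whereas RMER17A2 was lower in Ψ-IP than in either of them. Against input RMER17A2 was not called in edgeR, and its log2 fold change lay between -0.16 and -0.09 without 1 library.

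By group of names, MurERV4 elements held 35.5% of member CPM in the Ψ-IP set, RLTR names 25.2%, RMER names 24.8%, MYSERV 5.04%, ERVB 3.3%, MMERVK 1.56% and BGLII 1.29%. ETn/MusD elements, among the most active ERVs of the mouse, held 0.0772% with 5 names, where copies outside the annotated piRNA clusters were not counted. In the CMC set RMER names held 39.9% and MurERV4 elements 27.1%. Since the sets differ in kit, the difference between these shares was not tested. Internal parts (19 names) held 11% to 11.9% of member counts in input, 10.05% to 10.3% in Ψ-IP and 8.55% to 9.19% in flow-through. They held 10.9% to 11.3% in mock and 9.62% to 9.96% in CMC, so the groups of each set did not overlap. The fall from mock to CMC lay mostly in RMER3D-int, whose levels are given below, and the share was not computed without it. In edgeR 1 of 13 internal parts tested was lower after CMC and 0 were higher.

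Ψ-IP against input changed elements in both directions. Of the 66 member elements with a mean of at least 100 counts, 13 rose and 9 fell in edgeR, against a background of 17.0% and 21.2% of the 312 element names tested over all repeats. The 3 libraries of each group did not overlap for 35 of 66, against 62.8% of all names. The numbers depended on single libraries, with 12 up and 5 down without Ψ-IP replicate 1, 11 and 5 without input replicate 3, 12 and 4 without Ψ-IP replicate 3, and 10 and 4 without input replicate 1. The median log2 fold change was 0.01 over the member elements and -0.02 over all names. By group, RLTR names split evenly with 8 up and 8 down of 36, RMER names gave 2 up and none down of 12 (3 down at an unadjusted p under 0.05, and 1 down in DESeq2), and internal parts gave 2 down and none up of 11 (1 up at an unadjusted p under 0.05, and none up in DESeq2).

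Among the abundant names, MurERV4 had 6484, 6827 and 6230 CPM in input and 7886, 8438 and 7952 CPM in Ψ-IP. It was higher in every Ψ-IP library than in any input library, with a log2 fold change of 0.30 (SE 0.047, edgeR adjusted p = 0.000516). RLTR13D2, with 762 to 785 CPM in input and 975 to 1008 CPM in Ψ-IP, rose by 0.33 (SE 0.042), and RMER4B rose by 0.43 (SE 0.048) from 498 to 511 CPM to 658 to 708 CPM. Flow-through held still more RMER4B, at 735 to 879 CPM, a rise of 0.70 over input (SE 0.074), and Ψ-IP differed from it by -0.21 (edgeR adjusted p = 0.0334). LTR10 rose by 0.38 (SE 0.083), a call lost without Ψ-IP replicate 3 or without input replicate 1 or 3. RLTR20B3 fell by 0.42 on the log2 scale (SE 0.076), from 749 to 920 CPM to 603 to 675 CPM, and its call was lost without Ψ-IP replicate 3 (edgeR adjusted p = 0.0112). In flow-through it was lower again, at 482 to 510 CPM, so that Ψ-IP was above flow-through by 0.37 (SE 0.064, edgeR adjusted p = 0.000332), or 0.24 without its most abundant locus. RLTR9A fell by 0.21 (SE 0.052, edgeR adjusted p = 0.00759), a call lost under 9 of the alternatives, among them the leaving out of each library other than Ψ-IP replicate 3. MurERV4-int differed by -0.02 (SE 0.053, edgeR adjusted p = 0.741).

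RMER19B2 had 888, 981 and 888 CPM in input and 578, 821 and 554 CPM in Ψ-IP. Flow-through had 537 to 614 CPM. All Ψ-IP and flow-through libraries lay below all input libraries, and Ψ-IP replicate 2 lay apart from the other two. The log2 fold change was -0.51 (SE 0.14, edgeR adjusted p = 0.0113), past the threshold only without Ψ-IP replicate 2 (-0.71, edgeR adjusted p = 1.5e-05), with the replicate block (3e-05), in DESeq2 (0.00061) and with no count filter (0.00489).

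The largest rises over input were in less abundant names. RLTR20B2, an LTR whose member reads all came from 1 chromosome 15 cluster, had 13.6, 16.0 and 15.2 CPM in input and 25.5, 28.7 and 30.3 CPM in Ψ-IP. It rose by 0.92 (SE 0.10, edgeR adjusted p = 9.19e-05), and its flow-through level was higher still at 40.9, 49.1 and 34.3 CPM. RLTR43C rose by 0.82 (SE 0.096), with 143 to 160 CPM in input, 239 to 319 CPM in Ψ-IP and 228 to 264 CPM in flow-through. Both names were thus above input in the bound and in the unbound fraction. RLTR9E rose by 0.80 (SE 0.16) from 7.48 to 9.11 CPM to 12.4 to 18.5 CPM, with 7.49 to 9.51 CPM in flow-through.

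RLTR15, an LTR in the chromosome 9 cluster, rose by 0.65 (SE 0.079, edgeR adjusted p = 0.000133), with 127 to 157 CPM in input and 211 to 236 CPM in Ψ-IP. This rise rested on 1 locus of 31 nt at chr9:67755341-67755371 on the plus strand. That locus had 37.0, 28.9 and 27.5 CPM in input and 112, 107 and 105 CPM in Ψ-IP, and 8.56, 6.53 and 7.69 CPM in flow-through. Without it, RLTR15 differed by 0.07 (edgeR adjusted p = 0.483).

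The largest falls were smaller in size than the rises. RLTR26D fell by 0.58 on the log2 scale (SE 0.15, edgeR adjusted p = 0.00849), from 9.75 to 12.1 CPM to 6.64 to 8.99 CPM, and its call was lost without the most abundant locus, with library totals and without Ψ-IP replicate 2 or 3 or input replicate 1 or 2. RLTR25A fell by 0.52 (SE 0.076), from 72.7 to 76.7 CPM to 46.9 to 58.8 CPM, with 94.1 to 108 CPM in flow-through. RLTR19-int, the internal part in the chromosome 5 cluster whose sequences are given above, fell by 0.42 (SE 0.049), from 273 to 278 CPM to 204 to 211 CPM, and flow-through, at 183 to 211 CPM, was below input as well. RLTR13D1 fell by 0.39 (SE 0.092, edgeR adjusted p = 0.00566), a call lost without the most abundant locus and without Ψ-IP replicate 1 or 3 or input replicate 1 or 3.

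Ψ-IP against flow-through moved more elements. In edgeR 23 of 71 member elements rose and 22 fell, with 31.1% of the 312 names tested over all repeats higher and 31.1% lower, and the groups did not overlap for 58 of the 71, against 75.3% of all names. Of 10 internal parts, 6 rose, 4 did not pass and none fell in edgeR. One of the 4 was lower at an unadjusted p under 0.05, and DESeq2 called 6 higher and 1 lower. All 3 MYSERV names rose, by 0.36 for MYSERV16, 0.37 for MYSERV6-int and 0.76 for MYSERV-int on the log2 scale. MYSERV-int had 117, 131 and 125 CPM in Ψ-IP and 64.7, 79.0 and 78.4 CPM in flow-through. RMER names gave 3 up and 5 down of 15.

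MurERV4 was higher in Ψ-IP than in flow-through by 0.46 (SE 0.055, edgeR adjusted p = 2.66e-05), where flow-through had 5889, 5989 and 5930 CPM. RLTR13D2 rose by 0.80 (SE 0.059) over a flow-through level of 548 to 597 CPM, and LTR10 by 0.69 (SE 0.084). RMER17A2 went the other way, at -0.43 (SE 0.057, edgeR adjusted p = 5.15e-05), with 1721 to 1782 CPM in Ψ-IP and 2331 to 2408 CPM in flow-through. The largest differences were again in rarer names. RLTR15 was higher by 1.31 (SE 0.074), or 0.50 without its most abundant locus, and MLTR31FA by 1.31 (SE 0.13), with 32.4 to 37.9 CPM in Ψ-IP and 12.7 to 16.1 CPM in flow-through. RLTR13D5 was higher by 1.2 (SE 0.24) and RLTR22 by 0.89 (SE 0.074). Lower in Ψ-IP were RMER6B (-1.18, SE 0.21), RMER4A (-1.15, SE 0.11), RLTR13D1 (-1.11, SE 0.096), RLTR20C1 (-1.05, SE 0.23) and RLTR20A2B (-1.04, SE 0.25), of which RMER4A was the most abundant, with 242 to 307 CPM in Ψ-IP and 575 to 723 CPM in flow-through.

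Flow-through against input shows what the unbound fraction gained and lost relative to the same starting RNA. Of 72 member elements 23 rose and 18 fell in edgeR, against 26.8% and 24.6% of 317 names over all repeats. The groups did not overlap for 56 of 72 members, against 76.0% of all names. The 3 MYSERV names fell, by 0.33 for MYSERV16, 0.60 for MYSERV6-int and 0.78 for MYSERV-int. Of 11 internal parts 6 fell and none rose in edgeR or DESeq2, with 1 higher at an unadjusted p under 0.05 in each. The largest rises were RLTR20B2 (1.52, SE 0.14, or 1.06 without its most abundant locus), MMERVK9C (1.13, SE 0.11), RMER17B (1.11, SE 0.093), RLTR45 (1.04, SE 0.088) and RMER4A (1.03, SE 0.11). The largest falls were RLTR13D5 (-1.24, SE 0.23), RLTR22 (-0.87, SE 0.076), MLTR31FA (-0.84, SE 0.11), MYSERV-int (-0.78, SE 0.081) and RLTR25B (-0.74, SE 0.12). The comparisons within the Ψ-IP set share libraries, so a name can stand in several of them through the same libraries: RLTR22, for example, had 308 to 355 CPM in input, 326 to 338 CPM in Ψ-IP and 170 to 197 CPM in flow-through.

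**Figure D2:**
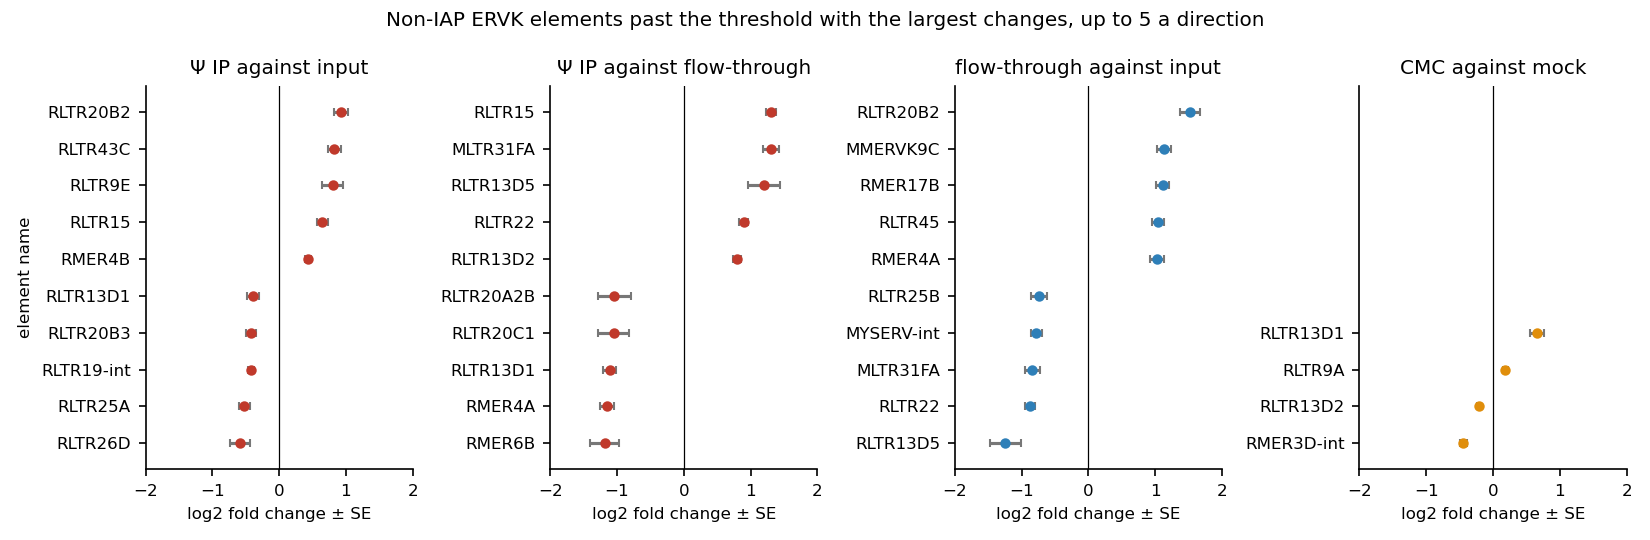
Log2 fold change with its SE for the member elements past an adjusted p of 0.01 with the largest changes, up to 5 in each direction, in 4 comparisons of 3 against 3 libraries. Changes reached 1.52 in flow-through against input, whereas only 4 elements passed in CMC against mock, between -0.45 and 0.66.

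CMC treatment changed few elements. In edgeR 2 of 88 member elements rose and 2 fell, with 2.87% of the 348 names over all repeats higher and 4.89% lower. The groups did not overlap for 32 of 88 members, against 39.1% of all names. RMER3D-int, an internal part, had 950, 1056 and 1014 CPM in mock and 778, 716 and 756 CPM in CMC. It fell by 0.45 on the log2 scale (SE 0.050, edgeR adjusted p = 0.000576), and 87.8% of its reads in the Ψ-IP set came from the chromosome 11 cluster. In the Ψ-IP set the same name had 423 to 433 CPM in input, 447 to 509 CPM in Ψ-IP and 292 to 299 CPM in flow-through, a log2 fold change of 0.12 over input (SE 0.062, edgeR adjusted p = 0.128) and of 0.68 over flow-through (SE 0.077, edgeR adjusted p = 1.49e-05). Its call after CMC held without each library in turn.

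RLTR13D2 fell after CMC by 0.21 (SE 0.033, edgeR adjusted p = 0.00211), from 435, 447 and 438 CPM to 388, 390 and 379 CPM, a name that had risen in Ψ-IP against both of its partners. RLTR9A rose by 0.18 (SE 0.032, edgeR adjusted p = 0.0043), from 480 to 494 CPM to 547 to 575 CPM, and RLTR13D1 rose by 0.66 (SE 0.10, edgeR adjusted p = 0.00211), from 27.9 to 29.4 CPM to 40.9 to 55.3 CPM. The call for RLTR9A was lost without CMC replicate 2 or any 1 of the mock replicates, and that for RLTR13D1 without any 1 of the mock replicates. Both had fallen in Ψ-IP against flow-through, and against input with calls that depended on single libraries as given above. Leaving out mock replicate 2 or mock replicate 3 left RMER3D-int as the only one of the 4 past the threshold, with 0 higher and 1 lower. Without CMC replicate 2 the 1 name that rose was RLTR13D1, and without mock replicate 1 it was another name, ERVB5, given here after its values were seen. With the full set 13 members were higher and 15 lower at an unadjusted p under 0.05, and DESeq2 called 4 higher and 2 lower. With replicate number as a block, 3 rose. MurERV4, the most abundant name, differed by -0.08 (SE 0.029, edgeR adjusted p = 0.0841).

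At single loci, 16622 members had more than 20 counts in total over the Ψ-IP set and 13194 over the CMC set, and these carried 84.7% and 90.5% of the member counts. In Ψ-IP against input 972 loci rose and 1464 fell in edgeR, which is 5.85% and 8.81% of the members tested, next to 5.45% and 10.7% of all 686863 loci tested. DESeq2 called 488 higher and 788 lower, or 2.94% and 4.74%, next to 2.83% and 6.07% of all loci. The median log2 fold change was 0.01 over the members and -0.10 over all loci. Without input replicate 1 the counts were 435 and 813, and without input replicate 3 they were 439 and 944. Among the 1120 members with an average of at least 50 counts, 337 rose and 283 fell, which is 30.1% and 25.3%, next to 26.0% and 27.4% of all 55108 such loci. Summed by 5′ end, an alternative chosen after seeing the data, 714 of 9944 rose and 924 fell, which is 7.18% and 9.29%, next to 7.32% and 11.7% of all 347067 5′ ends.

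Against flow-through, 1722 of the 16622 members rose and 482 fell, or 10.4% and 2.90%, next to 9.3% and 3.56% of all loci. The median was 0.16 over the members and -0.02 over all loci. The fall count was 318 without Ψ-IP replicate 1 and 290 without Ψ-IP replicate 2. After CMC, 89 of 13194 members rose and 98 fell, or 0.675% and 0.743%, next to 1.07% and 0.654% of all 556583 loci. DESeq2 called 47 higher and 69 lower, or 0.356% and 0.523%, next to 0.627% and 0.443% of all loci. Leaving out CMC replicate 2, mock replicate 2 or mock replicate 3 brought the counts to 50, 44 or 57 up and 47, 35 or 61 down. Most of the members tested thus stayed short of the threshold in each comparison.

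The 5 member loci most abundant in the Ψ-IP set all lay in the chromosome 5 cluster and differed widely between the fractions. The first, a 31-nt MurERV4 locus at chr5:113351473-113351503 on the plus strand, had 297, 381 and 252 CPM in input, 434, 804 and 546 CPM in Ψ-IP and 30.8, 47.5 and 47.0 CPM in flow-through. It was higher in each Ψ-IP library than in any other library of the set, by 0.81 over input (SE 0.18, edgeR adjusted p = 0.000165) and by 4.09 over flow-through (SE 0.26, edgeR adjusted p = 7.43e-53). The rise over input was lost without Ψ-IP replicate 2 (0.50), input replicate 1 (0.78) or input replicate 3 (0.63). In the CMC set it had 11.4 to 17.4 CPM in mock and 10.1 to 13.4 CPM in CMC (log2 fold change -0.37, SE 0.14, edgeR adjusted p = 0.173). The 30-nt form with the same 5′ end differed from input by 0.47 (SE 0.19, edgeR adjusted p = 0.0602) and from flow-through by 3.29 (SE 0.27). The difference from input rested on single libraries, with 0.05 (edgeR adjusted p = 0.894) without Ψ-IP replicate 2 and 0.77 (edgeR adjusted p = 0.00139), past the threshold, without Ψ-IP replicate 1. Summed over all lengths, this 5′ end changed by 0.73 over input (SE 0.19, edgeR adjusted p = 0.00148) and by 3.71 over flow-through (SE 0.24).

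A 31-nt MurERV4 locus at chr5:113350185-113350215 went with neither fraction alone. It had 72.7 to 87.2 CPM in input, 153 to 203 CPM in Ψ-IP and 214 to 245 CPM in flow-through, so both fractions lay above input, and Ψ-IP differed from flow-through by -0.04 (SE 0.23, edgeR adjusted p = 0.929). The 29-nt MurERV4 locus at chr5:113350281-113350309 had 68.2 to 83.3 CPM in input, 164 to 273 CPM in Ψ-IP and 52.9 to 74.6 CPM in flow-through, a rise of 1.38 over input (SE 0.20). The fourth locus, 32 nt of ERVB5 on the minus strand at chr5:113328331-113328362, was depleted from Ψ-IP. It had 66.3 to 88.0 CPM in input, 17.8 to 21.8 CPM in Ψ-IP and 174 to 326 CPM in flow-through, with log2 fold changes of -2.05 (SE 0.21) and -3.36 (SE 0.26).

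Of the 549 members with an average of at least 100 counts, 153 rose and 149 fell in Ψ-IP against input without overlap of the libraries. These were 27.9% and 27.1% of such members, next to 24.8% and 28.3% of all 26196 such loci. The 3 largest rises were all MurERV4 loci of the chromosome 5 cluster. The 30-nt loci at chr5:113350515-113350544 and chr5:113350518-113350547 start 3 bases apart on the same strand. They had 1.43 to 1.88 and 9.17 to 10.6 CPM in input, and 8.98 to 14.9 and 56.2 to 70.6 CPM in Ψ-IP, rises of 2.72 (SE 0.28) and 2.56 (SE 0.22). The 31-nt locus at chr5:113352123-113352153 had 9.17 to 11 CPM in input, 55.4 to 62.4 CPM in Ψ-IP and 9.09 to 11.3 CPM in flow-through, a rise of 2.37 over input (SE 0.22, edgeR adjusted p = 5.46e-23). Unlike the first pair, whose flow-through levels lay between those of input and Ψ-IP, this locus had overlapping levels in input and flow-through.

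The 3 largest falls were in other clusters. A pair of RLTR13D2 loci on the minus strand of chromosome 4, at chr4:94295761-94295789 and chr4:94295761-94295790 within Gm12648 but not in an exon, share their 3′ end and start 1 base apart. They fell by 4.35 (SE 0.31) and 3.95 (SE 0.29) on the log2 scale, from 13.0 to 15.3 and 16.2 to 20.5 CPM in input to 0.605 to 0.877 and 1.00 to 1.80 CPM in Ψ-IP, with 6.84 to 7.34 and 6.42 to 9.72 CPM in flow-through. They fell while the element as a whole rose. The 31-nt RMER19B2 locus at chr9:67747039-67747069 fell by 3.86 (SE 0.27), from 19.0 to 26.8 CPM to 1.00 to 2.57 CPM, with 3.72 to 8.04 CPM in flow-through.

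After CMC, 16 of 965 such members rose and 68 fell without overlap, which is 1.66% and 7.05%, next to 2.43% and 4.95% of all 50099 such loci. The 3 largest rises were short forms. A 26-nt RMER17A2 locus at chr17:27306623-27306648 on the minus strand rose from 1.40 to 1.77 CPM in mock to 6.64 to 9.07 CPM in CMC (2.21, SE 0.17, edgeR adjusted p = 3.05e-13). The 28-nt form at chr17:27306623-27306650, with the same 3′ end, rose from 2.65 to 3.00 CPM to 7.22 to 9.11 CPM (1.47, SE 0.15). A 25-nt MurERV4 locus at chr5:113352011-113352035 rose from 8.25 to 10.6 CPM to 20.02 to 26.5 CPM (1.16, SE 0.14), and had 0 counts in all 9 libraries of the Ψ-IP set, which allows levels of up to 0.12 to 0.259 CPM in single libraries by counting error alone. Summed over all lengths, the 5′ ends of the 26-nt and 25-nt loci differed by 0.32 (SE 0.10, edgeR adjusted p = 0.079) and 0.02 (SE 0.11, edgeR adjusted p = 0.959), whereas that of the 28-nt locus rose by 0.74 (SE 0.11, edgeR adjusted p = 3.42e-05). In the Ψ-IP set the 5′ ends of the 26-nt and 28-nt RMER17A2 loci fell in Ψ-IP against input by 2.50 (SE 0.21, edgeR adjusted p = 4.64e-18) and 1.51 (SE 0.23, edgeR adjusted p = 9.37e-08) on the log2 scale, and that of the 25-nt MurERV4 locus fell by 1.66 (SE 0.22, edgeR adjusted p = 9.64e-10).

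The 3 largest falls after CMC had lengths of 30 nt or more. The RMER19B2 loci of 31 and 30 nt at chr9:67748758-67748788 and chr9:67748758-67748787, which share a 5′ end within Gm7787 but not in an exon, fell by 1.21 (SE 0.17) and 1.01 (SE 0.14). Their levels were 4.87 to 5.08 and 10.6 to 12.3 CPM in mock and 1.61 to 2.62 and 4.86 to 6.67 CPM in CMC. The 33-nt RLTR13D2 locus at chr4:94295395-94295427, also within Gm12648, fell by 1.05 (SE 0.18), from 3.54 to 4.57 CPM to 1.78 to 2.30 CPM. Summed over lengths, both 5′ ends still fell, by 0.96 (SE 0.12, edgeR adjusted p = 1.4e-06) and 0.75 (SE 0.11, edgeR adjusted p = 1.41e-05). In the Ψ-IP set these 5′ ends differed from input by -0.53 (edgeR adjusted p = 0.093) and 0.22 (edgeR adjusted p = 0.436), and were higher than in flow-through by 2.53 and 1.95 (edgeR adjusted p = 2.88e-07 and 4.38e-10).

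**Figure D3:**
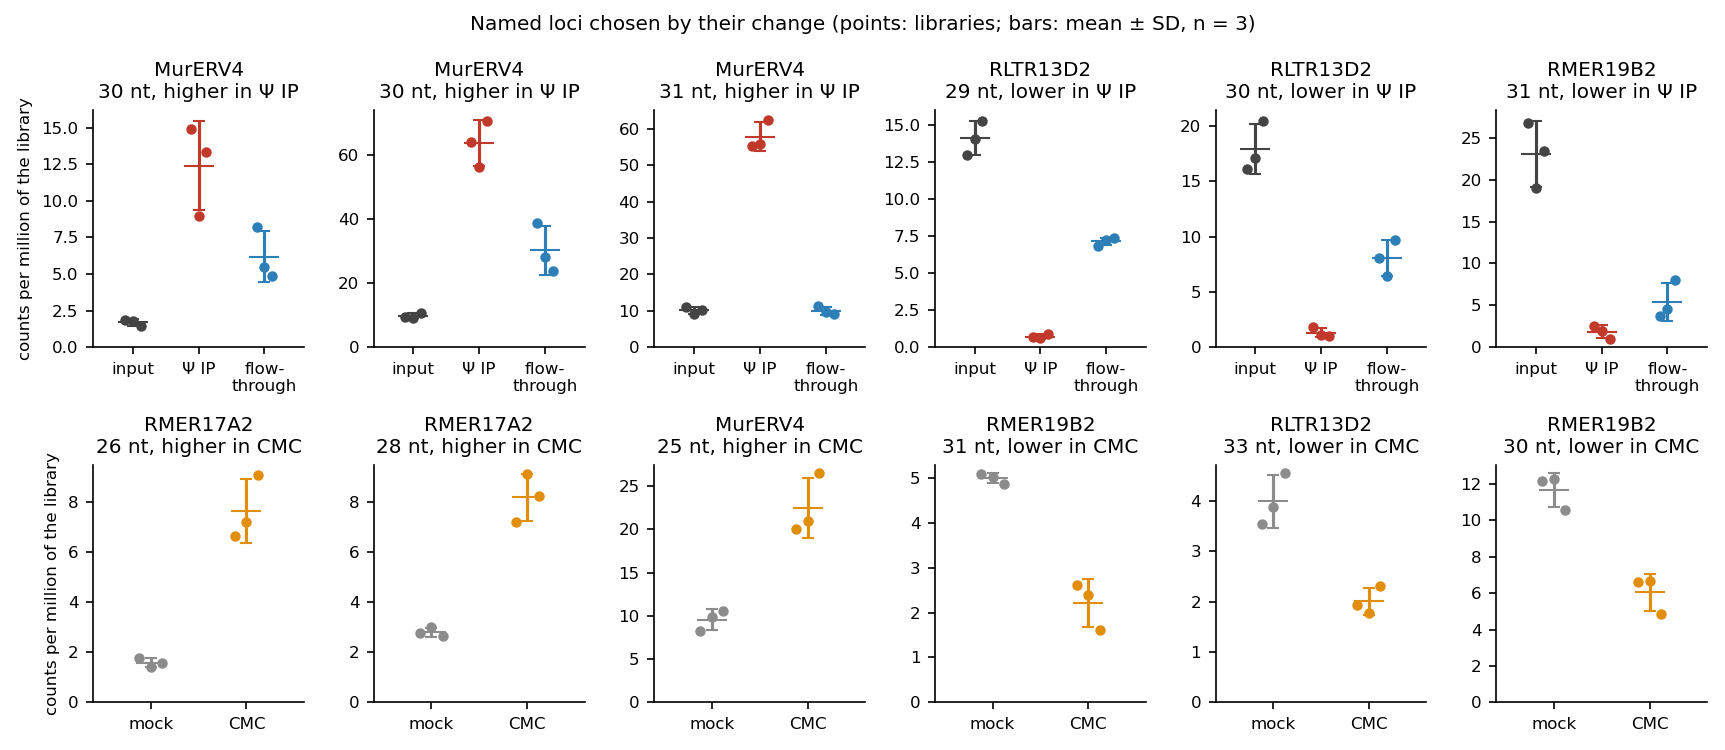
CPM in each library (points) with the mean and SD of 3 libraries for the member loci with the largest rises and falls, in input, Ψ-IP and flow-through (upper row) and in mock and CMC (lower row). In the upper row the 31-nt MurERV4 locus lies between 55.4 and 62.4 CPM in Ψ-IP and at or below 11.3 CPM in input and flow-through. In the lower row the groups do not overlap, as the choice of these loci required.

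Member lengths had their mode at 30 nt in all 15 libraries. The share of member counts at 29 to 31 nt was 71.0% ± 0.544 (SD, n = 3) in Ψ-IP, 68.0% ± 0.716 in input and 66.9% ± 0.502 in flow-through. The share at 25 to 27 nt, the range of shorter piRNAs, was 10.6% ± 0.545 in Ψ-IP, 12.5% ± 0.401 in input and 11.97% ± 0.372 in flow-through. The Ψ-IP libraries did not overlap input in either share, with an exact permutation p of 0.1 for each, the smallest possible. The mean length was 29.64 to 29.76 nt in Ψ-IP and 29.47 to 29.57 nt in input for members, and 29.45 to 29.54 nt and 29.31 to 29.40 nt for the counts at all other loci, so the same direction was seen outside the members. In flow-through the mean length of members was 29.56 to 29.69 nt, which overlapped Ψ-IP. After CMC the share at 25 to 27 nt was 18.3% ± 0.309, against 16.8% ± 0.284 in mock (exact permutation p = 0.1). The share at 29 to 31 nt was 60.53%, 60.01% and 57.31% in CMC replicates 1, 2 and 3, and 62.62%, 61.98% and 60.39% in the mock replicates. The groups overlapped (exact permutation p = 0.2, a test that does not use the replicate number), although each CMC library was below the mock library of its number. No mock or CMC library had a member count at 34 to 44 nt, whereas all 9 libraries of the Ψ-IP set had counts at each of these lengths, so mean lengths were not compared between the sets.

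Overlaps of 5′ ends on opposite strands were counted as well. Among pairs of member 5′ ends on opposite strands that overlapped by 1 to 20 nt, an overlap of 10 nt was the most frequent in each of the 15 libraries. It held 8.55% to 9.10% of pairs in input, 9.46% to 10.1% in Ψ-IP, 10.6% to 11.8% in flow-through, 10.6% in mock and 10.1% to 10.6% in CMC, against a median of 4.51% to 4.93% for the other overlaps. The A at base 10 that ping-pong partners of piRNAs with a first uridine carry was seen in 16.3% to 23.5% of the exonic member counts given above, which were the only ones with bases read. The share of A at other bases was not computed, so these values show no excess of A at base 10. In the overlap of 10 nt, input libraries lay below those of Ψ-IP, and Ψ-IP below flow-through, without overlap, a difference that was not tested. Distances of 1 nt from a 3′ end to a 5′ end downstream on the same strand, the sign of phased cutting, were not the most frequent in any library and held 4.35% to 4.95% of the distances of 1 to 20 nt.

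**Figure D4:**
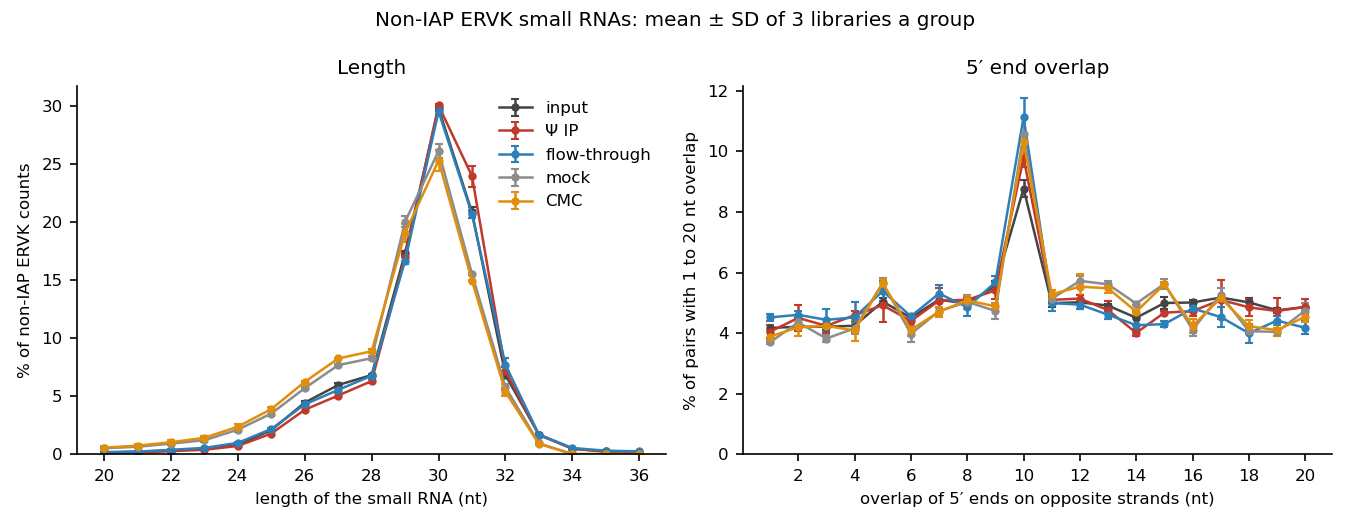
Left, percent of member counts at each length from 20 to 36 nt, and right, percent of opposite-strand pairs of 5′ ends at each overlap from 1 to 20 nt, as the mean and SD of 3 libraries in each group. The length curves peak at 30 nt with more RNA below 28 nt and none above 33 nt in mock and CMC, and the overlap curves have their peak at 10 nt in all 5 groups.

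Single 5′ ends gave ladders of lengths, and the most abundant length could differ between groups. At the first sequence shown above, the RMER4B 5′ end in Gm21221, 24 lengths were seen and their sum was 36.6 ± 1.91 CPM in input, 93.9 ± 10.1 CPM in Ψ-IP and 159 ± 28.9 CPM in flow-through (SD, n = 3). Ψ-IP was above input by 1.28 (SE 0.19, edgeR adjusted p = 4.79e-08) and flow-through was higher still. Its 32-nt form was the most abundant in Ψ-IP (30.7 CPM) and flow-through (53.2 CPM), the 29-nt form in input (11.3 CPM) and the 28-nt form in mock (14.8 CPM) and CMC (19.4 CPM).

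The RLTR19-int 5′ end at 113321001, in 4930405N21Rik, centred on 26 nt in the Ψ-IP set, and its sum fell from 91.2 ± 6.14 CPM in input to 48.8 ± 6.45 CPM in Ψ-IP (-0.98, SE 0.19, edgeR adjusted p = 2.26e-05). Flow-through, at 43.3 ± 12.4 CPM, was below input as well, and Ψ-IP did not differ from it at the threshold (0.39, SE 0.24, edgeR adjusted p = 0.243). That of MYSERV6-int in Gm13821 peaked at 31 nt, with 68.1 ± 13.0 CPM in input, 45.2 ± 5.57 CPM in Ψ-IP and 17.6 ± 5.44 CPM in flow-through. It was lower in Ψ-IP than in input (-0.66, SE 0.19, edgeR adjusted p = 0.0054) and higher than in flow-through (1.58, SE 0.25, edgeR adjusted p = 1.04e-07). For none of the 6 5′ ends shown did CMC differ from mock at the threshold in edgeR, with adjusted p between 0.101 and 0.923.

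**Figure D5:**
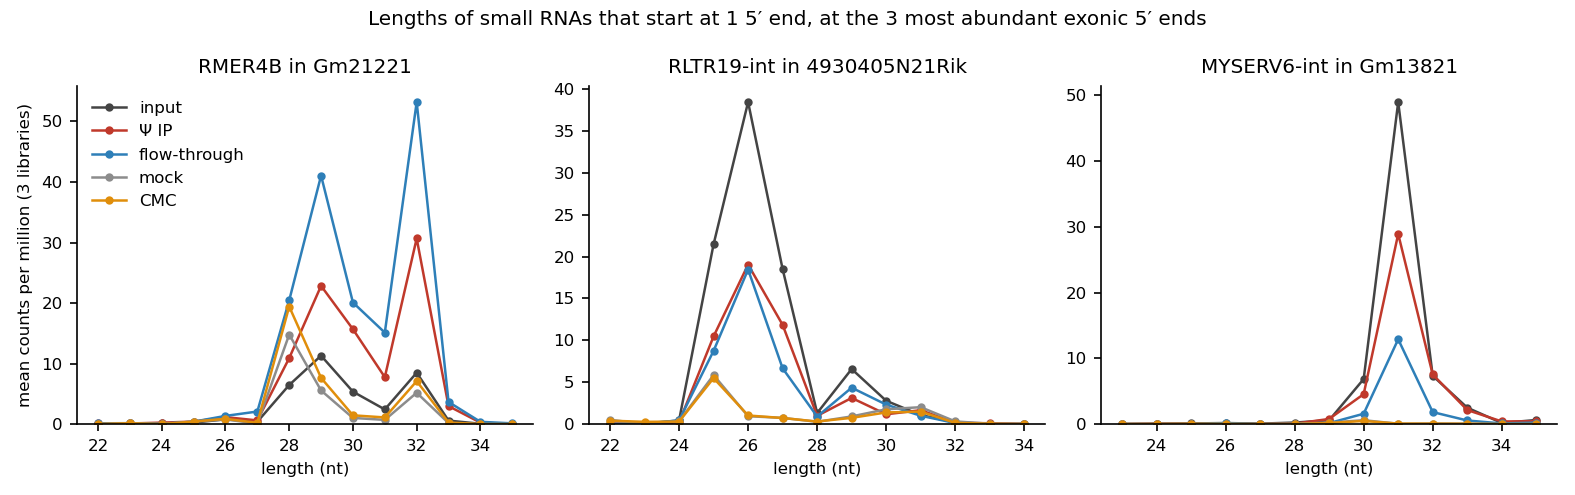
Mean CPM of 3 libraries at each length from 22 to 35 nt for the small RNAs that start at 1 5′ end, in 5 groups. The 5′ ends are the first 3 of those whose sequences are shown above. RMER4B in Gm21221 peaks at 32 nt in Ψ-IP and flow-through and at 28 nt in mock and CMC, and MYSERV6-int in Gm13821 peaks at 31 nt in the Ψ-IP set.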

How the data were processed

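Small RNA of mouse testis was sequenced in 15 libraries, 3 in each of 5 groups. The authors selected RNA by size on a gel, trimmed reads with Cutadapt, kept reads with lengths from 14 nt, set tRNA fragments aside, mapped the rest to mm10 with Bowtie 2 allowing mismatches, and intersected the alignments with the UCSC repeat annotation and piRNA clusters with BEDTools. The authors deposited, for each interval and strand, the counts of its reads without normalization. How reads that map to several places were counted is not given in the sources used here, so elements with near-identical copies may share reads, and their levels are uncertain to that extent.

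Here the files were joined by locus and counts were summed by family and by element name. CPM is the count per 1000000 counts of the library. Groups were compared with edgeR 4.0.16 (R 4.3.3) (quasi-likelihood fit, TMM factors), and p was adjusted over every row tested by Benjamini and Hochberg's method, with a threshold of 0.01. Rows of the summed tables needed a mean of at least 100 counts, and loci more than 20 counts in total over the set. The SE is the log2 fold change divided by the root of the F statistic. DESeq2 1.42.0 was an alternative. Ratios and length shares were compared with two-sided exact permutation tests (scipy 1.17.1), where 3 against 3 libraries allow no p under 0.1. Intervals and floors cover counting error only, since reads are not independent molecules, and a count of 0 allows up to 3 counts.

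Named elements were the 10 with the highest mean CPM in the Ψ-IP set and up to 5 in each direction with the largest change past the threshold. Named loci were the 5 most abundant in the Ψ-IP set. To these were added up to 3 in each direction in Ψ-IP against input and CMC against mock with an average of at least 100 counts and no overlap. RLTR15's most abundant locus was named after its values were seen. Members, groups of names and these rules were chosen with earlier results of these data known. The fits were tested on simulated data.

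Replicate numbers were checked for pairing by the correlation of deviations from the group means over loci averaging 50 counts or more. Libraries of CMC and mock with the same number correlated at 0.133, 0.154 and 0.306, each above 0.1, which is a hint of pairing from the data and not from the labels. In the Ψ-IP set this was not so. The fits and permutation tests reported did not use the number, and edgeR with the number as a block was an alternative.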

Additional observations from a re-analysis of the deposited data

How the results depend on the processing

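Replicate number as a block gave 14 elements up and 11 down in Ψ-IP against input, 23 and 22 in Ψ-IP against flow-through, 3 and 2 in CMC against mock, and 22 and 18 in flow-through against input. At single loci the block gave 820 up and 1253 down, 1398 and 368, and 103 and 143 in the first 3 of these comparisons. In the Ψ-IP set the numbers did not pair the libraries, with correlations between -0.0811 and 0.308.

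For the member total in Ψ-IP against input, the log2 fold change was 0.050 without the most abundant locus and between 0.056 and 0.090 without 1 library, below the threshold in each case. It was past the threshold at 0.118 with DESeq2 size factors and the DESeq2 test, 0.107 with library totals, 0.117 with no count filter and 0.130 with a mean of at least 1000 counts. Against flow-through it was 0.11 with no count filter, also below the threshold. The uncalled totals changed sign for CMC against mock with no count filter (0.012) and for flow-through against input with DESeq2 size factors (0.0073), with the DESeq2 test (0.0073) and with no count filter (0.067). The cause was not tested.

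With a mean of at least 1000 counts, which tests fewer elements, 13 rose and 11 fell in Ψ-IP against flow-through and 13 rose in flow-through against input. DESeq2 called 4 elements higher after CMC. Without 1 library, the elements lower in Ψ-IP than in input numbered 4 to 8, those higher after CMC 0 to 2 and those lower after CMC 1 to 3.

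At single loci, Ψ-IP against input gave 488 up and 788 down in DESeq2, 337 and 283 with an average of at least 50 counts, 924 down when summed by 5′ end, and 435 to 1106 up and 813 to 1431 down without 1 library. Against flow-through, 353 rose and 207 fell with at least 50 counts, 306 fell in DESeq2, and 290 to 413 fell without 1 library. After CMC, 47 rose in DESeq2, 36 with at least 50 counts and 48 when summed by 5′ end, with 44 to 86 up and 35 to 121 down without 1 library.

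Values near 0 changed sign for MurERV4-int in Ψ-IP against input (0.0067 with no count filter, and -0.058 to 0.026 without 1 library), RMER19B2 in Ψ-IP against flow-through (-0.059 without Ψ-IP replicate 2, and up to 0.283 without another library), RMER17A2 in CMC against mock (0.017 with library totals, 0.0034 without the most abundant locus and -0.031 to 0.010 without 1 library) and the MurERV4 locus starting at 113350185 (0.068 against flow-through without Ψ-IP replicate 2, and down to -0.195 without another library). Of length shares, in percentage points, that at 24 to 33 nt after CMC became 0.18 with each locus counted once and lay between -0.896 and 0.105 without 1 library. With each locus counted once, the share at 25 to 27 nt in Ψ-IP against flow-through became 0.893, that at 29 to 31 nt in flow-through against input 1.58 and that at 30 nt 0.661. The share at 30 nt in Ψ-IP against input became -0.289 over loci with more than 20 counts. The summing by 5′ end and the leaving out of libraries for ratios and length shares were chosen after seeing the data, and all 72 such ratio values kept their direction.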

Other observations

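The loci with the uncertain family name ERVK#, which no comparison used, had 15.2 to 18.3 CPM in input, 20.9 to 22.5 CPM in Ψ-IP, 19.9 to 25.5 CPM in flow-through, 10.96 to 12.7 CPM in mock and 9.51 to 10.3 CPM in CMC.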
